A study of Mus musculus with 6 samples.

Results

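Tgfbi, a secreted matrix protein gene whose expression is induced by TGF-beta, was described together with 8 genes of TGF-beta signalling in the mouse hippocampus. These were the ligands Tgfb1, Tgfb2 and Tgfb3, the receptors Tgfbr1, Tgfbr2 and Tgfbr3, the inhibitor Smad7 and the latent TGF-beta binding protein Ltbp1. Members were the rows with these gene symbols, 9 of the 54532 genes measured, and all 9 were at a level that could be tested. Tgfbi was picked for its higher values in TG than in WT libraries, so its difference between the groups is given as a description without a test. The other 8 genes were chosen by name, with earlier results of these data known.

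Hippocampal RNA was sequenced in 3 libraries of wild-type mice (WT1 to WT3) and 3 libraries of TG mice (TG1 to TG3). The TG mice carry G82R and L85P in Slc1a2, the gene of the astrocytic glutamate transporter GLT-1. The changes were introduced into the endogenous gene by CRISPR/Cas9 on a C57BL/6N background, so no transgene promoter drives them, and no group received a drug. Age and zygosity of the sequenced mice are not given in the sources used here, nor is whether a library holds 1 mouse or a pool, so p-values measure the spread between these libraries. The comparison asks which genes differ in expression between carriers of the variant and wild-type mice.

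TGF-beta ligands are secreted in a latent form, held by their propeptide and by binding proteins such as LTBP1, and are released by integrins, thrombospondin or proteases. The active ligand brings together the type II receptor TGFBR2 and the type I receptor TGFBR1, with the coreceptor TGFBR3 (betaglycan) presenting ligand, and the receptors phosphorylate SMAD2 and SMAD3, which enter the nucleus with SMAD4. SMAD7 is induced by the pathway and inhibits it at the receptor. In the brain, TGF-beta is known for its part in microglial identity, vessel integrity and glial scarring.

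Expression is given as FPKM, reads per kilobase of gene scaled to library size, so levels of different genes can be compared per length. The reads on genes ran from 16081281 to 18751057 per library, and for a 1 kb gene 3 reads correspond to 0.160 to 0.190 FPKM. The targeted gene Slc1a2 (ENSMUSG00000005089) had FPKM of 202.5, 199.5 and 177.3 in WT1 to WT3, against 222.0, 207.1 and 217.3 in TG1 to TG3, a log2 fold change of 0.16 (SE 0.0856, limma adjusted p = 0.789). FPKM do not carry the variant bases, so these values do not check the genotype. The Y-linked gene Ddx3y was at 10.6 to 12.3 FPKM in all 6 libraries. Hippocampal neuron markers (summed FPKM 736.9 to 804.2) were present in every library, with the glutamate transporter gene Slc17a7 between 237.3 and 321.9 FPKM and the dentate granule cell gene Prox1 between 9.81 and 14.4. All 12 choroid plexus markers were higher in both TG1 and TG2 than in any WT library, whereas in TG3 this held for 2 of the 12. Their summed FPKM were 83.3, 59.5 and 74.6 in WT1 to WT3, against 1215, 3839 and 66.8 in TG1 to TG3. Ttr, the transthyretin gene that leads this list, had 1168 FPKM in TG1, 3705 in TG2 and 57.7 in TG3. TG1 and TG2 therefore stand apart from the other libraries, and results are also given without them where this matters.

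The promoters that follow are shown because they belong to Tgfbi and Tgfbr2, members whose TG libraries all lay above the WT libraries. Tgfbr3 met the same condition, but no promoter window was available for it. The printed promoters are the RefSeq windows from 250 bases before to 50 bases after the annotated start (GRCm38.p6). They are given 5′ to 3′ on the strand of the gene. Tgfbi is on the plus strand of chromosome 13 (chr13:56609336-56609635) and Tgfbr2 on the minus strand of chromosome 9 (chr9:116175314-116175613). Capitals mark CAGAC, the SMAD binding element, or its reverse complement GTCTG.
Tgfbi: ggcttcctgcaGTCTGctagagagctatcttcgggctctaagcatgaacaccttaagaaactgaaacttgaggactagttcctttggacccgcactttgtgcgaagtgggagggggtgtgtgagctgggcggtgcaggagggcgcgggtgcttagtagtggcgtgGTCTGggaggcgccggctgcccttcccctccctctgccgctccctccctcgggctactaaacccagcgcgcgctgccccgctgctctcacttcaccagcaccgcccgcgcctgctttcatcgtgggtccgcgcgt
Tgfbr2: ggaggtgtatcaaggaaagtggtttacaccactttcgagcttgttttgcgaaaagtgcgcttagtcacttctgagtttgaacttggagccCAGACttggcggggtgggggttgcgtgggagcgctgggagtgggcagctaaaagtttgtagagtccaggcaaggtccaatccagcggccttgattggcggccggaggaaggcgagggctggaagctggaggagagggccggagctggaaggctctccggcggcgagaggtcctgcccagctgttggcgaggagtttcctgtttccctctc

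The Tgfbi window held the element 2 times, both on the reverse strand, and the Tgfbr2 window held it once. Of 32851 promoter windows of the same length, 16292 (49.6%) held it on either strand. The GC content was 63.3% for Tgfbi and 59.0% for Tgfbr2, against a median of 52.7% over all windows. Windows were taken for 6 of the 9 members, and chromosome 18, which holds Smad7, was left out of this step. The window of Tgfb1 held no such element, whereas that of Tgfb2 held 2. A match of 5 bases describes the letters of the window only.

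Tgfbi (ENSMUSG00000035493, chromosome 13, 56609523 to 56639562, plus strand, GRCm38) had FPKM of 1.03, 0.870 and 0.977 in WT1 to WT3, against 2.36, 2.74 and 1.70 in TG1 to TG3. All TG values exceeded all WT values, with TG2 highest and TG3 lowest among them. The mean FPKM was 0.960 ± 0.0826 in WT and 2.27 ± 0.523 in TG libraries (SD, n = 3 each), a fold of means of 2.36. On the scale of log2(FPKM + 0.1) the difference was 1.14 (SE 0.194), and the lowest TG value was 1.65-fold the highest WT value. These FPKM rested on 72, 53 and 69 reads in WT1 to WT3, against 141, 185 and 116 reads in TG1 to TG3. The 95% Poisson counting interval was 0.808 to 1.30 FPKM in WT1 and 1.41 to 2.04 FPKM in TG3. Reads have no molecular identifiers, and these intervals cover counting error only. Among the TG libraries the range was 1.61-fold, larger than the WT spread.

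**Figure D1:**
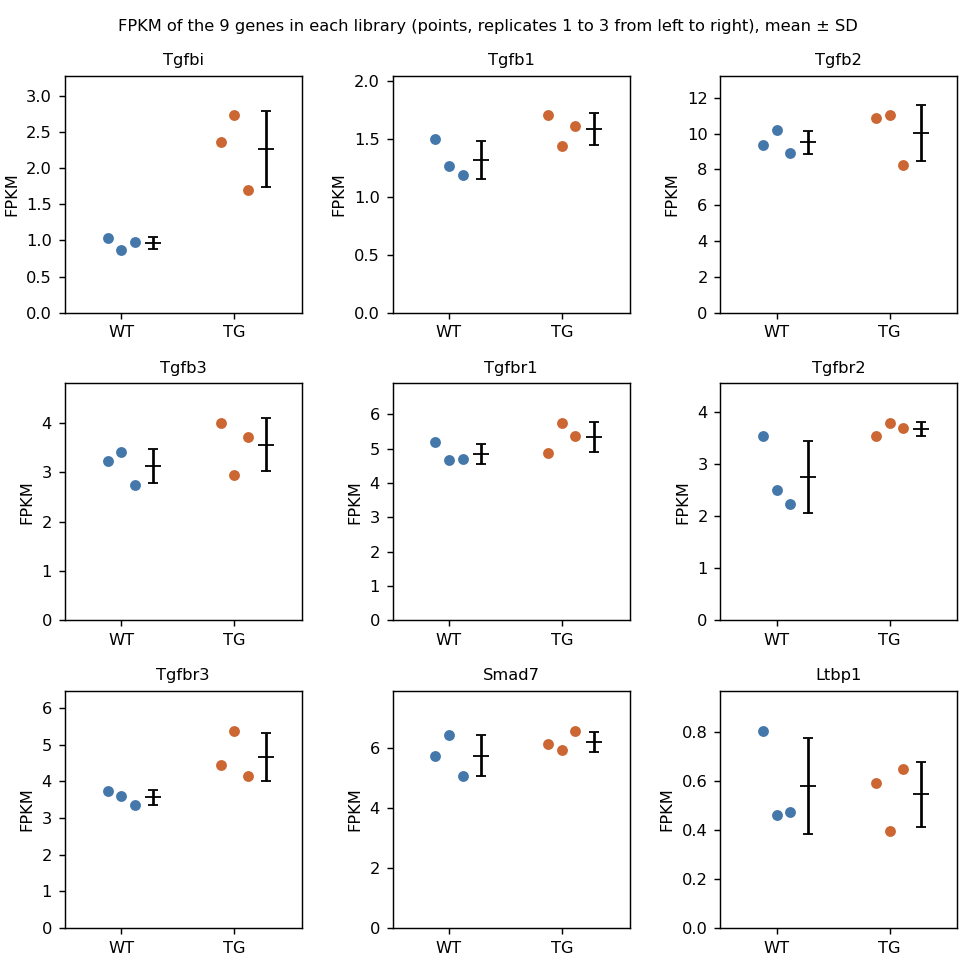
FPKM of the 9 genes in each library, with WT and TG on the horizontal axis, replicates 1 to 3 from left to right as points and bars for the mean ± SD. The TG points of Tgfbi, 1.70 to 2.74 FPKM, lie above its WT points, 0.870 to 1.03, and in most other panels the points of the groups overlap.

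The order of Tgfbi in the TG libraries, TG2 then TG1 then TG3, was the same as that of the choroid plexus sum. In TG3 that sum was 66.8, inside the WT range of 59.5 to 83.3, and Tgfbi was 1.70 FPKM there, above all 3 WT values. A TG3 value of Tgfbi above WT was favoured by how the gene was picked. Without TG1 and TG2 the log2 difference was 0.77 (SE 0.204), on 1 TG library assumed to vary like the WT libraries. No choroid plexus marker was at 0 in any library. How much of the difference in TG1 and TG2 goes with choroid plexus RNA was not tested.

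Border and perivascular macrophages, cells in which Tgfbi is known to be expressed, had a summed FPKM over 8 markers of 4.49, 2.90 and 3.52 in WT1 to WT3, against 4.71, 4.21 and 4.85 in TG1 to TG3. The groups overlapped in this sum, since TG2 lay below WT1, and no marker of the list was at 0. Of the 7 tested markers, 6 had a log2 fold change above 0 (median 0.35), beside 49.6% of all genes tested. At an unadjusted limma p under 0.05, 0 of them were higher, beside 3.13% of all genes. Monocyte and neutrophil markers summed to 10.7, 9.41 and 22.9 in WT1 to WT3, against 6.77, 9.16 and 19.8 in TG1 to TG3, with no group apart. Microglial markers summed to 92.1 to 122.4 over all 6 libraries, again with overlap. Their part in the Tgfbi difference was not tested. In whole tissue, fewer cells of a type and less RNA per cell cannot be told apart.

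**Figure D2:**
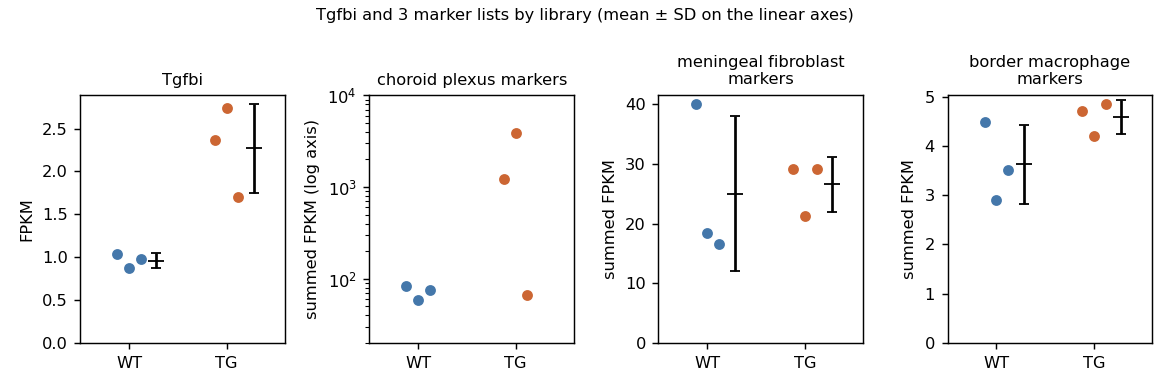
Tgfbi FPKM beside the summed FPKM of choroid plexus markers (12 genes, log axis), meningeal fibroblast markers (10 genes) and border macrophage markers (8 genes), with replicates 1 to 3 from left to right in each group and bars for the mean ± SD on the linear axes. In TG3 the choroid plexus sum is at 66.8, among the WT libraries, and Tgfbi is at 1.70, above them. Tgfbi was picked for higher values in TG than in WT libraries.

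The genes whose libraries were arranged most like those of Tgfbi were found by the smallest root mean square difference, over 6 libraries, of log2(FPKM + 0.1) minus the mean of the WT libraries. Of 13324 genes with a mean of at least 1 FPKM, the 5 closest were Igtp (0.205), Crb2 (0.211), Irgm2 (0.245), Sfrp1 (0.250) and Msx1 (0.260). Igtp had FPKM of 2.22, 1.56 and 1.61 in WT1 to WT3, against 3.56, 4.41 and 2.49 in TG1 to TG3. Crb2 had 0.969, 0.712 and 0.933 in WT libraries, against 1.71, 2.59 and 1.17 in TG libraries. In all 5, as in Tgfbi, TG2 was the highest library. Igtp and Irgm2 overlap on chromosome 11, so how reads in the shared stretch were counted could affect both genes. The likeness was ranked after Tgfbi had been picked by its pattern and is a description.

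Among the ligands, Tgfb2, which acts in development and in glia, was the most abundant. Tgfb2 (ENSMUSG00000039239, chromosome 1, 186622792 to 186705989, minus strand) had FPKM of 9.39, 10.2 and 8.95 in WT1 to WT3, against 10.9, 11.0 and 8.25 in TG1 to TG3. The groups overlapped, with TG3 lowest of all 6. The log2 difference was 0.07 (SE 0.125, 95% interval -0.22 to 0.36, limma adjusted p = 0.896), and without TG2 it was -0.00. Tgfb3 (ENSMUSG00000021253, chromosome 12, 86056745 to 86079041, minus strand) had FPKM of 3.23, 3.40 and 2.73 in WT libraries, against 3.997, 2.952 and 3.715 in TG libraries. TG2 lay among the WT values, and the log2 difference was 0.18 (SE 0.145, 95% interval -0.16 to 0.52, limma adjusted p = 0.789). Tgfb3 shares 8.79% of its 50-base stretches with transcripts of other genes, and antisense genes overlap its exons.

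Tgfb1 (ENSMUSG00000002603, chromosome 7, 25687002 to 25705077, plus strand), the ligand made by microglia and vessels, had FPKM of 1.502, 1.265 and 1.186 in WT1 to WT3, against 1.70, 1.44 and 1.61 in TG1 to TG3. WT1 lay above TG2, so the groups overlapped. Its log2 difference was 0.25 (SE 0.150, 95% interval -0.10 to 0.61, limma adjusted p = 0.789), on 103 to 147 reads. Over the sum of the 3 ligands, Tgfb2 made up 68.2% ± 1.57 in WT and 66.0% ± 5.39 in TG libraries (SD, n = 3 each; exact two-sided permutation p = 0.6), and the share of Tgfb1 was 9.46% ± 1.08 against 10.5% ± 1.29 (exact permutation p = 0.4). The summed FPKM of the ligands was 13.9 ± 1.01 in WT and 15.2 ± 1.52 in TG libraries (exact permutation p = 0.3, where 0.1 is the smallest p that 3 against 3 allows).

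Ltbp1 (ENSMUSG00000001870, chromosome 17, 75005568 to 75392512, plus strand), which anchors latent ligand to the matrix, was the member with the lowest level. Its FPKM were 0.805, 0.461 and 0.474 in WT1 to WT3, against 0.591, 0.394 and 0.650 in TG1 to TG3, from 74 to 156 reads. The groups overlapped, with a log2 difference of -0.06 (SE 0.290, 95% interval -0.74 to 0.62, limma adjusted p = 0.964). The sign of this difference turned without WT1, to 0.16, and without TG2, to 0.12.

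Of the receptors, Tgfbr1 (ENSMUSG00000007613, chromosome 4, 47353222 to 47414931, plus strand), the type I kinase, had the highest FPKM, with 5.18, 4.66 and 4.70 in WT1 to WT3, against 4.87, 5.75 and 5.36 in TG1 to TG3. WT1 lay above TG1, so the groups overlapped. The log2 difference was 0.13 (SE 0.0963, 95% interval -0.09 to 0.36, limma adjusted p = 0.789).

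Tgfbr2 (ENSMUSG00000032440, chromosome 9, 116084293 to 116175360, minus strand), the type II receptor that binds ligand first, had FPKM of 3.534, 2.495 and 2.225 in WT1 to WT3, against 3.535, 3.788 and 3.686 in TG1 to TG3. The TG libraries all lay above the WT libraries, but TG1 exceeded WT1 by only 0.000756 FPKM. The mean was 2.75 ± 0.691 in WT and 3.67 ± 0.127 in TG libraries (SD, n = 3 each), a log2 difference of 0.43 (SE 0.170, 95% interval 0.03 to 0.83). It was past an unadjusted p under 0.05 but not past the adjusted threshold (limma adjusted p = 0.786). Without TG1 and TG2 the log2 difference was 0.44 and no longer past the unadjusted threshold (limma adjusted p = 0.977).

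Tgfbr3 (ENSMUSG00000029287, chromosome 5, 107106570 to 107289629, minus strand), the betaglycan coreceptor, had FPKM of 3.74, 3.60 and 3.35 in WT1 to WT3, against 4.45, 5.39 and 4.14 in TG1 to TG3. The groups lay apart, and TG2 was the highest. The mean was 3.56 ± 0.198 in WT and 4.66 ± 0.650 in TG libraries (SD, n = 3 each), a log2 difference of 0.37 (SE 0.120, 95% interval 0.09 to 0.65). As for Tgfbr2, this was past the unadjusted threshold only (limma adjusted p = 0.786). Without TG1 and TG2 the log2 difference was 0.21 and past neither threshold (limma adjusted p = 0.977).

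As shares of the summed FPKM of the 3 receptors, Tgfbr1 took 43.6% ± 2.08 in WT and 39.0% ± 1.44 in TG libraries (SD, n = 3 each), and the groups did not overlap (exact two-sided permutation p = 0.1, the smallest possible; Benjamini-Hochberg adjusted p = 0.4 over 8 comparisons of shares and sums). The summed receptor FPKM was 11.2 ± 1.14 in WT and 13.7 ± 1.11 in TG libraries, also without overlap (exact permutation p = 0.1, adjusted p = 0.4). These receptor shares and sums were added after the values had been seen.

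Smad7 (ENSMUSG00000025880, chromosome 18, 75367529 to 75395935, plus strand), the inhibitor induced by the pathway, had FPKM of 5.72, 6.42 and 5.06 in WT1 to WT3, against 6.12, 5.91 and 6.56 in TG1 to TG3. The groups overlapped, and the log2 difference was 0.12 (SE 0.106, 95% interval -0.13 to 0.37, limma adjusted p = 0.791).

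**Figure D3:**
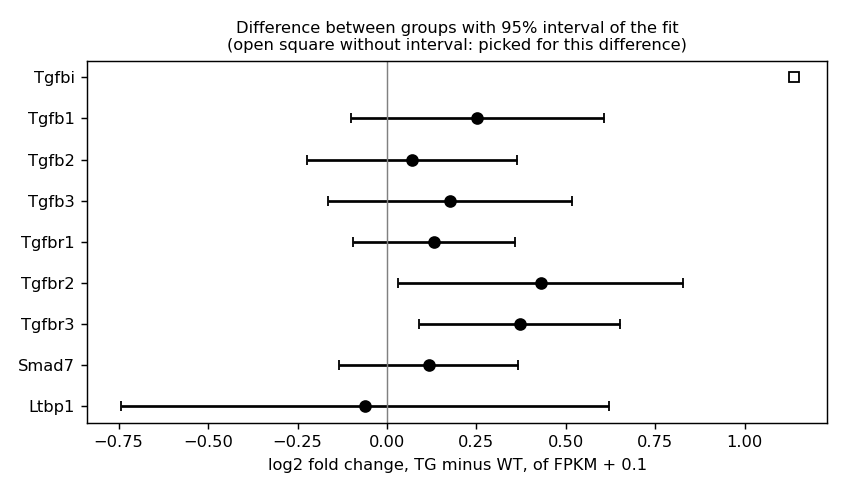
Log2 fold change of TG minus WT libraries on the scale of FPKM + 0.1, with the 95% interval of the limma fit for 8 genes and a single open square for Tgfbi, which was picked for its difference. The intervals of Tgfbr2 (0.03 to 0.83) and Tgfbr3 (0.09 to 0.65) lie above 0, and the other 6 intervals include 0.

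Of the 8 genes other than Tgfbi, 7 had a log2 fold change above 0 (median 0.15), against 49.6% of all 20952 genes tested, whose median was -0.00. The choice of the 8 was made with earlier results of these data known, so these counts are a description. At an unadjusted p under 0.05, 2 of the 8 were higher (Tgfbr2 and Tgfbr3) and 0 were lower, while 3.13% of all genes tested were higher and 2.78% were lower. At an adjusted p under 0.05 none of the 8 passed with limma (smallest adjusted p 0.786) and 0.00955% of all genes did. All TG values exceeded all WT values for 2 of the 8 (Tgfbr2 and Tgfbr3) against 6.35% of all genes, and 0 lay below, against 5.71%. The 8 genes are long, and of the 9985 tested genes at least as long as the shortest member (3383 bases), 58.9% had a log2 fold change above 0, 3.53% were higher at that p and 8.91% had all TG libraries above. All genes gave 656 higher and 582 lower, and 481 higher and 760 lower where libraries were scaled to the same median; under that scaling 7 of the 8 were above 0. Without TG1 and TG2, and also without TG2 alone, 0 of the 8 passed that unadjusted threshold. Tgfbr2 was past that threshold in 1 of the 6 fits that left out 1 library, the fit without WT1, where its log2 difference was 0.62. Tgfbr3 was past it in each of these fits except the one without TG2, where its log2 difference was 0.26.

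**Figure D4:**
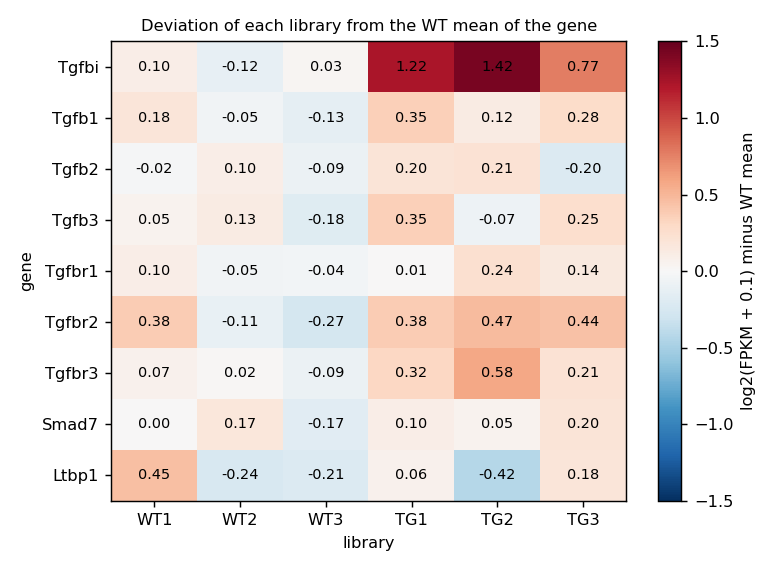
Deviation of each library (columns) from the WT mean of the gene (rows), in log2(FPKM + 0.1), as colour with the value in each cell. Tgfbi lies above the WT libraries in all TG libraries, and the median deviation of the other 8 is 0.26, 0.17 and 0.21 in TG1 to TG3 and 0.08, -0.02 and -0.15 in WT1 to WT3.

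Levels within a library kept nearly the same order. Tgfb2 had the highest FPKM in 6 of 6 libraries, followed by Smad7, Tgfbr1 and Tgfbr3, and each of these exceeded the next in 6 of 6 libraries. Tgfb3 exceeded Tgfbr2 in 4 of 6 libraries (mean log2 ratio 0.07, SD 0.295), so these neighbours did not differ beyond their spread. Tgfbi exceeded Tgfb1 in 3 of 6 libraries, those labelled TG, and Tgfb1 exceeded Tgfbi in the 3 WT libraries. This switch was favoured by how Tgfbi was picked. Tgfb1 exceeded Ltbp1 in 6 of 6 libraries.

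The rest of the pathway was taken from 5 lists, 56 genes in all, of which 53 were tested. These lists too were chosen with earlier results of these data known. Of the 53, 44 had a log2 fold change above 0 (median 0.16), 4 were higher at an unadjusted p under 0.05, 0 were lower and 0 passed at an adjusted p under 0.05 (limma; smallest adjusted p 0.786). Over all genes tested the corresponding shares were 49.6% above 0 (58.9% among the long genes), 3.13% higher and 2.78% lower. Without WT3 the median of the 53 was 0.08. The groups lay apart with TG above for 11 genes, where the share over all genes was 6.35% (8.91% among the long genes), and with TG below for 1 gene, where it was 5.71%. That gene was Nrros, which guides latent TGF-beta in microglia. Nrros had a mean of 1.86 ± 0.115 in WT and 1.62 ± 0.0276 FPKM in TG libraries (SD, n = 3 each; log2 difference -0.19, limma adjusted p = 0.789). The 4 genes higher at an unadjusted p became 1 without TG1 and TG2, 8 without WT1, 1 without WT3 and 2 without TG1.

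In the latent complex and activation list, 10 of 12 genes were above 0 (median 0.22), against 49.6% of all genes and 58.9% of the long genes. At an unadjusted p under 0.05, 2 were higher, Thbs1 and Itgb5, against 3.13% of all genes and 3.53% of the long genes. Thbs1, a thrombospondin that can release the latent ligand, had FPKM of 0.517, 0.479 and 0.413 in WT1 to WT3, against 0.989, 0.992 and 0.839 in TG1 to TG3. The groups lay well apart, with a log2 difference of 0.87 (SE 0.194, limma adjusted p = 0.786), from 47 to 108 reads. Itgb5, an integrin subunit gene, had FPKM of 15.8, 13.4 and 14.3 in WT1 to WT3, against 16.0, 20.4 and 16.3 in TG1 to TG3. TG2 was the highest, and TG1 and TG3 lay just above WT1. The mean of Itgb5 was 14.5 ± 1.19 in WT and 17.6 ± 2.46 FPKM in TG libraries (SD, n = 3 each), a log2 difference of 0.27 (SE 0.113, limma adjusted p = 0.786).

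Of the receptor partners and regulators, 6 of 9 were above 0 (median 0.14), beside 49.6% of all genes and 58.9% of the long genes. At an unadjusted p 0 passed in either direction, beside 3.13% of all genes higher and 2.78% lower. Strap, a receptor-associated inhibitor, was the most abundant at 46.0 ± 4.28 in WT and 42.3 ± 1.02 FPKM in TG libraries (SD, n = 3 each; limma adjusted p = 0.789). Eng, the endothelial coreceptor, had 7.57 ± 1.17 against 8.97 ± 0.413 (log2 difference 0.25, limma adjusted p = 0.786).

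Of 11 Smads and nuclear partners, 10 were above 0 (median 0.07), where 49.6% of all genes and 58.9% of the long genes were, and 0 passed at an unadjusted p, where 3.13% of all genes were higher and 2.78% lower. The corepressor gene Ski had 37.1 ± 2.33 in WT and 40.5 ± 2.42 FPKM in TG libraries (SD, n = 3 each; log2 difference 0.13, limma adjusted p = 0.789). Smad9 had 2.49 ± 0.197 against 3.09 ± 0.392 (0.29, limma adjusted p = 0.786), and Smad2, which carries the TGF-beta signal, had 7.12 ± 0.358 against 6.78 ± 0.363 (-0.07, limma adjusted p = 0.840).

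Among 18 known target genes, 15 were above 0 (median 0.22), beside 49.6% of all genes and 58.9% of the long genes. Their median deviation from the WT mean was 0.32, -0.04 and 0.35 in TG1 to TG3, against 0.23, -0.01 and -0.12 in WT1 to WT3. TG2 was thus not raised, and WT1 lay above TG2. Some of these targets, Acta2 among them, are also on the meningeal fibroblast or smooth muscle marker lists. At an unadjusted p 1 of the 18 was higher, Timp1, a metalloproteinase inhibitor, a share close to the 3.13% of all genes. Timp1 had 0.385 ± 0.0940 in WT and 0.679 ± 0.156 FPKM in TG libraries (SD, n = 3 each; log2 difference 0.68, SE 0.269, limma adjusted p = 0.786), from only 5 to 12 reads. Junb, the most abundant of the list, had 46.1 ± 6.27 against 50.1 ± 6.39 FPKM (limma adjusted p = 0.826), and Angptl4 had 1.05 ± 0.222 against 0.803 ± 0.321 (log2 difference -0.39, limma adjusted p = 0.789). The fasciclin relatives of Tgfbi were above 0 in 3 of 3 (median 0.28), beside 49.6% of all genes and 58.9% of the long genes. At an unadjusted p 1 of the 3 was higher, the scavenger receptor gene Stab1, beside 3.13% of all genes. Stab1 had 1.84 ± 0.273 in WT and 2.35 ± 0.163 FPKM in TG libraries (SD, n = 3 each), a log2 difference of 0.34 (SE 0.144, limma adjusted p = 0.786).

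**Figure D5:**
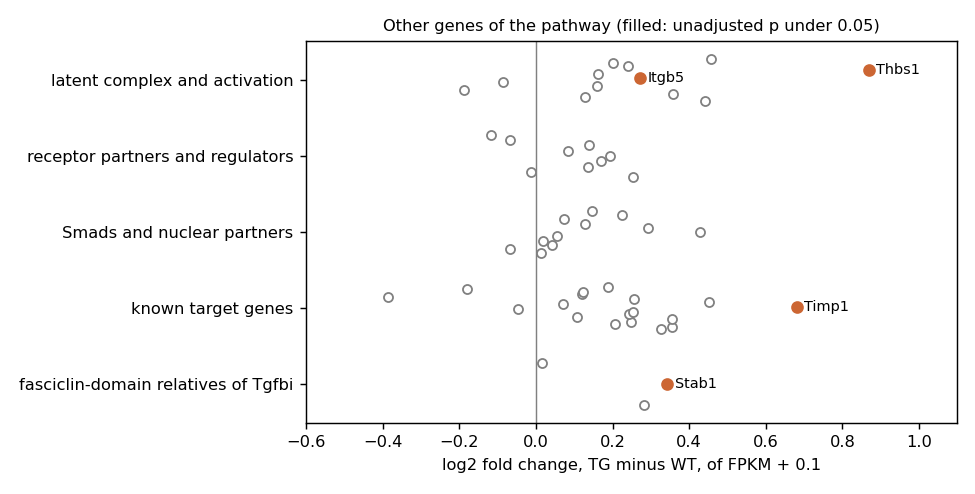
Log2 fold change of TG minus WT libraries for the 53 tested genes of the 5 pathway lists, 1 point per gene by list (vertical spread within a list has no meaning), filled where the unadjusted p was under 0.05. Of these, 44 lie above 0 and 4 were higher at an unadjusted p under 0.05, with Thbs1 the largest of the 4 at 0.87.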

How the data were processed

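The authors counted reads per gene with HTSeq and deposited FPKM for 54532 genes in 6 libraries of mouse hippocampus, 1 column per library; the aligner and strand setting are not given in the sources used here. Labels and methods name different extraction and library kits. Coordinates of the 9 members were the same as in a GRCm38 annotation (GENCODE M21). FPKM times gene length gave whole reads for 100% of values (tolerance 0.05 reads). FPKM were tested on log2(FPKM + 0.1), after a filter on a mean FPKM of at least 0.1, with limma 3.58.1 in R 4.3.3 (eBayes with trend, Benjamini-Hochberg adjustment over all 20952 genes tested, two-sided, threshold 0.05), 3 WT against 3 TG, no covariate. The pseudocount shrinks fold changes of genes with low FPKM. The fit was tested on simulated data with 193 changed genes among 20411 tested. At the adjusted threshold it called 117 of the changed genes in the right direction and 16 unchanged genes wrongly. Named genes were the 9 members, the most abundant and the smallest-p gene in each direction of each pathway list, the most abundant of each cell type list and the 5 genes most like Tgfbi. Acta2, Ctgf, Smad6 and Prox1 fall outside this rule and were chosen after their values were seen, and Slc1a2 and Ddx3y were checks of the samples. Results of some genes under this rule are not reported here. The members and the lists were chosen with earlier results of these data known. Alternatives were pseudocount, filter, scaling, variance model, voom on recovered reads, replicate block and left-out libraries. Scripts also used Python 3.11.15, scipy 1.17.1, numpy 2.4.6 and matplotlib 3.10.9.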

Additional observations from a re-analysis of the deposited data

How the results depend on the processing

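The log2 difference of Tgfbi, whose direction was fixed by how the gene was picked, was 0.73 with a pseudocount of 1, 0.77 without TG1 and TG2, and 0.99 to 1.32 without 1 library. The number of the 8 other genes higher at an unadjusted p under 0.05 (2 in all libraries) was 1 without the variance trend, 0 without TG1 and TG2, and 0 to 2 without 1 library (0 without TG2). The number of pathway genes higher (4) was 2 without a filter, 1 with a mean of at least 1 FPKM, 2 with libraries scaled to the same median, 1 without TG1 and TG2, and 1 to 8 without 1 library (8 without WT1, 1 without WT3, 2 without TG1); the number lower was 0 to 1 (1 without TG1). Without 1 library the log2 difference of Tgfb2 ran from -0.00245 (without TG2) to 0.205 and that of Ltbp1 from -0.183 to 0.162 (above 0 without WT1, and 0.119 without TG2). Without TG1 and TG2 they were -0.20 and 0.18. The log2 difference without 1 library ran from 0.03 to 0.20 for Smad7, 0.0866 to 0.301 for Tgfb3 and 0.0759 to 0.192 for Tgfbr1. The cause was not tested. Left-out libraries moved the ligand share differences between 0.345 and 1.63 percentage points for Tgfb1, -5.01 and 0.372 for Tgfb2, and -0.717 and 3.39 for Tgfb3. Over all genes, the count at an adjusted p under 0.05 (2) was 9 without the variance trend, 11 without TG1 and 0 with voom on recovered reads.

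The labels do not say whether replicate numbers pair the libraries. The correlations of same-numbered WT and TG libraries were small, at 0.0125, 0.0434 and 0.0031. WT1 and WT2 correlated best with the TG library of the same number, and WT3 with TG1 (0.016), so pairing was not settled. With the replicate block, 2 pathway genes were higher at an unadjusted p under 0.05. Low read numbers limit Ltbp1, Timp1 and Tgfbi. Genes that share exon bases with a member reached 0.612 FPKM for Tgfb2, 0.101 for Tgfb3 and 0.0620 for Tgfbr3.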

Other observations

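Acta2, Ctgf and Smad6, genes of the pathway lists, were chosen after their values were seen, and their groups overlapped. The FPKM of Acta2, smooth muscle actin, were 21.7, 8.13 and 8.73 in WT1 to WT3, against 23.1, 7.24 and 15.7 in TG1 to TG3, high in WT1, TG1 and TG3. Ctgf, a matricellular growth factor gene, had 8.58, 3.61 and 4.91 FPKM in WT libraries, against 7.69, 5.77 and 7.28 in TG libraries, and Smad6, an inhibitory Smad, had 2.18, 0.831 and 0.933 in WT libraries, against 1.99, 1.57 and 1.43 in TG libraries. The 10 meningeal fibroblast markers, led by Dcn (7.86 to 14.1 FPKM), summed to 40.1, 18.5 and 16.6 FPKM in WT1 to WT3, against 29.2, 21.3 and 29.2 in TG1 to TG3, and the 8 pericyte and smooth muscle markers to 100.7, 68.8 and 69.0 and to 97.4, 66.1 and 86.2. All 3 genes were highest or second highest in WT1, as was the meningeal sum, and the part of these cell types in the genes was not tested. Acta2 is itself a member of the smooth muscle list.

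Oligodendrocyte markers, 7 genes led by Mbp, a myelin protein, summed to 759.0, 714.5 and 596.0 FPKM in WT1 to WT3, against 469.3, 647.1 and 698.7 in TG1 to TG3. Of these 7, 0 had a log2 fold change above 0 and 1 was lower at an unadjusted limma p under 0.05, while 49.6% of all genes tested were above 0 and 2.78% were lower. Astrocyte markers, led by Aldoc (249.4 to 314.8 FPKM), summed to between 488.1 and 549.6 FPKM over the 6 libraries and brain endothelium markers, led by Slc2a1 (32.7 to 41.0 FPKM), to between 110.6 and 123.1. None of the marker lists had a gene at an adjusted p under 0.05 with limma. Other markers that lead their lists were Vtn of the pericytes at 27.7 to 41.9 FPKM, S100a9 of the neutrophils at 3.39 to 12.2 and Pf4 of the border macrophages at 0.601 to 1.31.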
